A study of Drosophila melanogaster with 8 samples.

Results

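The genes described here are 10 named heat shock proteins and cytosolic chaperones of Drosophila melanogaster, chosen by name: the small heat shock proteins Hsp22, Hsp23, Hsp26 and Hsp27, the Hsp70-family protein Hsp68, its constitutive relative Hsc70-4, the Hsp90 of the fly Hsp83, the cochaperones DnaJ-1 and Hop, and the heat shock transcription factor Hsf. On the array used, 7 of the 10 have a probe set that the array annotation gives to that gene alone, of 10844 genes with such a probe set in all. Those 7 are Hsp26, Hsp27, Hsp68, Hsc70-4, DnaJ-1, Hop (current symbol Stip1) and Hsf, each with 1 probe set, and all 7 were bright enough to be tested. Hsc70-4 has 2 more that are dim and shared with Acbp3, which are not used. Hsp22 has 3 probe sets, each shared with its neighbour CG4456. Hsp23 has no named probe set in the annotation and is not analysed here. Hsp83 is missing from the array annotation too, but the RefSeq gene table lists 1 probe set ID among its synonyms. That probe set was added after its values were seen and is reported apart from the 7.

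The study exposed cultured Drosophila L57 cells to juvenile hormone III (JH III), the insect hormone that keeps larval character between moults, and measured RNA on Affymetrix arrays. The 4 groups of 2 arrays each were cells given the solvent DMSO and cells given 1 µM JH III for 3, 6 or 12 h. All groups share the same medium with heat-inactivated serum, and the labels name no engineered allele. The labels list DMSO without a time, so every exposure is set against the same 2 DMSO arrays, and hours in culture and hours in hormone cannot be told apart. The labels do not say whether replicates came from separate cultures, so p-values measure the spread between arrays, which may be technical. The source label of DMSO replicate 1 also names embryos, whereas its growth text describes cultured cells.

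Heat shock proteins are chaperones that bind unfolded protein. Small heat shock proteins hold unfolded chains in large oligomers, the Hsp70 and DnaJ proteins refold them with ATP, and Hsp90 with its cochaperones finishes the folding of kinases and hormone receptors, while Hsf binds the heat shock elements before these genes and switches them on under stress. In Drosophila, the small heat shock genes Hsp22, Hsp23, Hsp26 and Hsp27 are also induced without heat by the moulting hormone ecdysone, and Hsp83 takes part in the nuclear import of the juvenile hormone receptor Met.

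Values are MAS5 signals, an intensity averaged over the probes of a probe set and scaled by the authors, and levels are compared only within 1 probe set. On the second 6 h array, 3151 of the 14010 probe sets (22.5%), controls included, held no readable signal, so Hsp26, Hsp27 and Hsf have 1 array at 6 h. Changes are differences of log2(signal + 25) from limma, fitted over all 8380 probe sets that passed a filter on dim signal, and a change was called at a Benjamini-Hochberg adjusted p under 0.05. Arrays of the same group correlated with r of 0.972 to 0.980, against 0.966 to 0.977 for arrays of different groups. These correlations cover all probe sets readable on every array, dim ones and controls included.

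Hsp26, Hsp27 and Hsp68 fell after 3 h of JH III, and none of the other 4 of the 7 genes passed the test in either direction. In that comparison 18.8% of all probe sets tested were called, 8.16% lower and 10.6% higher. At 6 h Hsp26, Hsp27 and Hsp68 were again below DMSO and passed the test, and Hsf passed it in the upward direction, against 13.5% of all probe sets called (6.21% lower, 7.32% higher). At 12 h only Hsp26 passed the test among the 7, now in the upward direction, where 5.92% of all probe sets were called (3.34% higher, 2.58% lower). The 3 exposures share the DMSO arrays, so their calls are not independent of each other. The median log2 change of the 7 genes was -0.13 at 3 h, -0.19 at 6 h and -0.005 at 12 h, beside 0.01, 0.04 and -0.01 over the 6865 genes tested. By position alone, 4 of the 7 lay below both DMSO arrays on every readable 3 h array (Hsp26, Hsp27, Hsp68 and Hsc70-4) and Hsf lay above both, where 27.8% of all probe sets lay below, 34.6% above and 62.4% on either side. At 6 h DnaJ-1 joined those 4 below and Hsf was again above, where 28.2% lay below, 37.1% above and 65.4% on either side. At 12 h only Hsp68 lay below and only Hsp26 above, where 25.6% lay below, 26.1% above and 51.7% on either side. The split of all probe sets called depends on the scaling: at 3 h it was 888 higher and 684 lower, but 507 higher and 1413 lower when each array was centred on its median, and 328 higher and 188 lower with quantile normalization. At 6 h it was 613 and 520, against 349 and 1141 with median centring and 417 and 95 with quantile normalization. At 12 h it was 280 and 216, against 181 and 708 and against 72 and 30. Median centring put the median change of all probe sets tested at -0.13, -0.10 and -0.12 at 3, 6 and 12 h, where the deposited scaling put it at 0.03, 0.05 and 0.00. Relative to those, Hsp26, Hsp27 and Hsp68 stayed lower at 3 h and 6 h with the deposited scaling and with median centring, and with quantile normalization, which put the median at -0.03 and 0.16, they were called lower too. In RNA from bulk cultures, fewer cells with a transcript and less of it in each cell cannot be told apart.

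**Figure D1:**
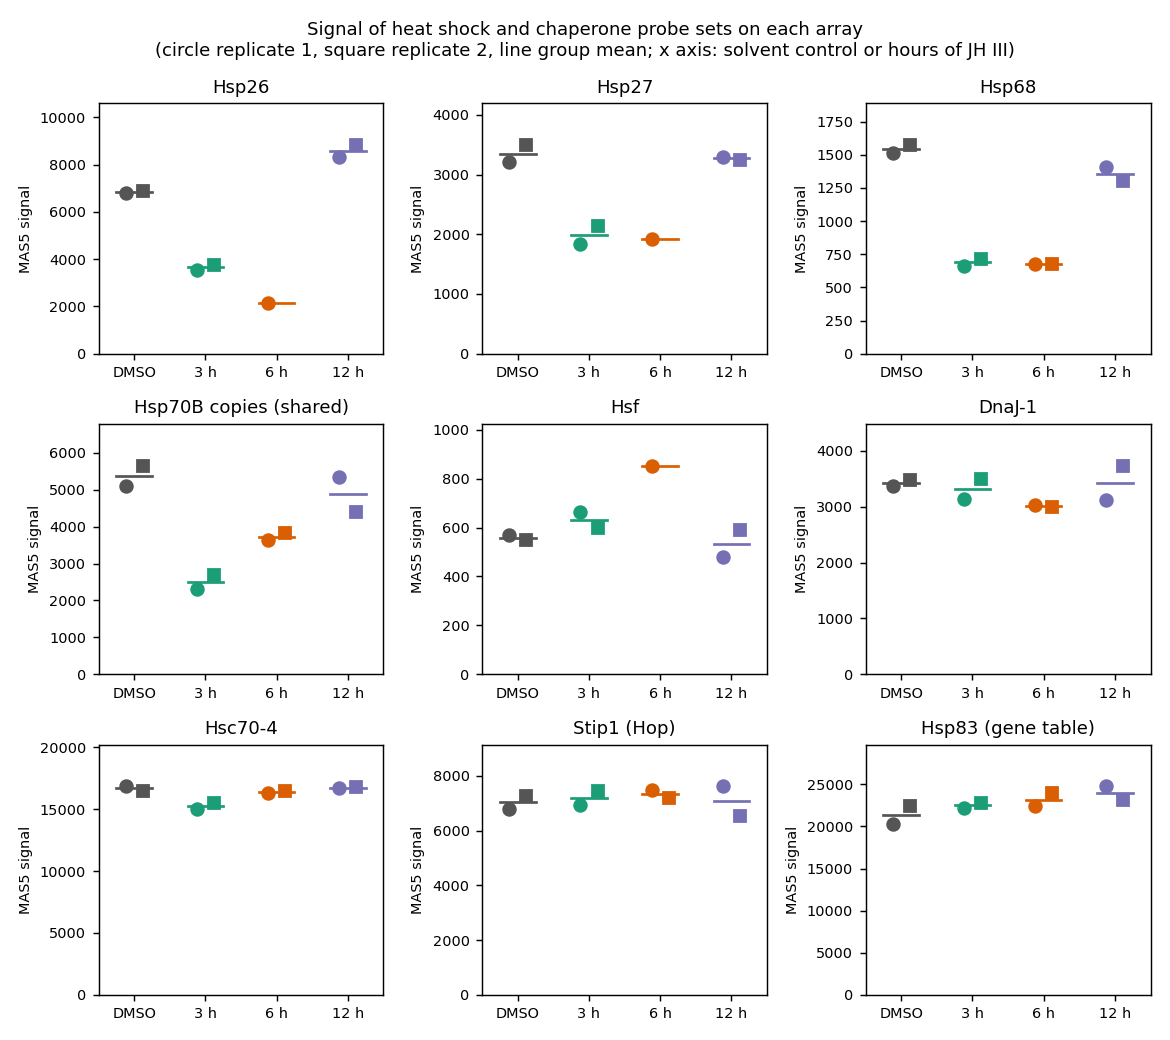
MAS5 signal (y axis, linear, from 0, own scale for each panel) of 9 probe sets on each array, by group (x axis: DMSO or hours of 1 µM JH III); circles are replicate 1, squares replicate 2 and lines group means. Hsp26, Hsp27, Hsp68 and the probe set shared by Hsp70B copies are lower at 3 h and 6 h than in DMSO, and only 1 array is readable at 6 h for Hsp26, Hsp27 and Hsf.

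Among the small heat shock genes, Hsp26 had the widest range. Its signal was 6801 and 6883 in the DMSO arrays, 3560 and 3748 at 3 h, 2157 on the only readable 6 h array, and 8323 and 8825 at 12 h. The groups did not overlap: both 12 h arrays lay above DMSO, and the 3 h arrays lay between DMSO and the 6 h array. At 3 h the mean was 53.4% of the DMSO mean, a log2 change of -0.90 ± 0.07 (SE; adjusted p = 0.000295). At 6 h it was 31.5% of the DMSO mean, a log2 change of -1.65 ± 0.08 (1 array at 6 h; adjusted p = 7.53e-05), which ranked 2nd from the lowest among the 8380 probe sets. The 12 h mean was 125% of the DMSO mean, a log2 change of 0.32 ± 0.07 (adjusted p = 0.0293). This last call is the less firm one: it passed the test in 7 of the 18 other settings tried, and was lost without either DMSO array, without either 3 h array or without 12 h replicate 2.

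Hsp27, a small heat shock protein that also acts in the nucleus, gave 3205 and 3493 in DMSO, 1840 and 2133 at 3 h, 1928 on the readable 6 h array, and 3302 and 3247 at 12 h. The 3 h and 6 h arrays lay below both DMSO arrays, and the 12 h arrays lay between them. The log2 change was -0.75 ± 0.09 at 3 h (adjusted p = 0.00136) and -0.79 ± 0.11 at 6 h (1 array at 6 h; adjusted p = 0.00369). At 12 h the difference was -0.03, with a 95% interval from -0.24 to 0.17 (adjusted p = 0.886). At 12 h Hsp26 passed the test and Hsp27 did not, but the difference between the genes was not tested.

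The 3 probe sets shared by Hsp22 and CG4456, a further small heat shock gene also called Hsp67Bb, did not move together. The brightest gave 1643 and 1103 in DMSO and 974 and 1213 at 3 h, 1157 and 899 at 6 h, then 1734 and 1527 at 12 h, with each exposure overlapping DMSO and none called. The next gave 423 and 436 in DMSO, 376 and 355 at 3 h, 392 on the readable 6 h array, and 499 and 401 at 12 h, and was not called either. The dimmest, near the filter of 61.5 signal units, gave 64.0 and 56.5 in DMSO, 139 and 138 at 3 h, 84.8 and 87.1 at 6 h, then 75.7 and 113 at 12 h. It passed the test at 3 h with a log2 change of 0.94 (adjusted p = 0.0443), a call held in 6 of 18 other settings. Since the probe sets disagree and cannot tell Hsp22 from CG4456, no direction is given for Hsp22.

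Of 8 further small heat shock and alpha-crystallin genes, 3 were tested and none passed at any exposure. CG4461, which lies in the same gene cluster as Hsp26, changed by 0.13, 0.36 and 0.25 at 3, 6 and 12 h on the log2 scale. The other 2 gave 0.20, 0.24 and 0.47 for l(2)efl, an alpha-crystallin relative, and -0.28, -0.64 and -0.06 for CG13133. The median of the 3 genes was 0.13 at 3 h and 0.24 at 6 h, while CG13133 lay below 0 as Hsp26 and Hsp27 did. Over the other settings, the kept zeros aside, this median ranged from -0.03 to 0.16 at 3 h and from 0.08 to 0.40 at 6 h. Of all probe sets tested, 18.8%, 13.5% and 5.92% were called at 3, 6 and 12 h.

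Hsp68, a heat-inducible member of the Hsp70 family, gave 1516 and 1573 in DMSO. It gave 665 and 713 at 3 h, 675 and 678 at 6 h, then 1408 and 1305 at 12 h. The 3 h and 6 h arrays overlapped each other and lay far below DMSO, and both 12 h arrays lay just below the DMSO arrays. The log2 change was -1.14 ± 0.09 at 3 h (adjusted p = 0.000208) and -1.16 ± 0.09 at 6 h (adjusted p = 0.000269), each the 23rd lowest of 8380, and both 6 h arrays were readable. At 12 h it was -0.18 ± 0.09 (adjusted p = 0.262), with a 95% interval from -0.38 to 0.01.

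The copies of Hsp70 itself, the main heat-inducible chaperone of the fly, are nearly identical, and the array measures those of the B locus with probe sets that carry several symbols. Those probe sets were looked at after the values of the named genes were seen. The brighter gave 5101 and 5652 in DMSO, 2316 and 2681 at 3 h, 3636 and 3823 at 6 h, then 5348 and 4395 at 12 h. All 3 h and 6 h arrays lay below DMSO, and the 12 h arrays overlapped it. Its log2 change was -1.10 ± 0.11 at 3 h (adjusted p = 0.000482) and -0.52 ± 0.11 at 6 h (adjusted p = 0.014), and -0.15 at 12 h (adjusted p = 0.474). The 6 h call was lost in 5 of 19 other settings, among them without DMSO replicate 2 (-0.45) and without 6 h replicate 1 (-0.49). The dimmer probe set gave 816 and 656 in DMSO and between 545 and 649 at all exposures, with log2 changes of -0.32, -0.26 and -0.29 and adjusted p of 0.144, 0.264 and 0.263. The probe sets therefore disagree on the size, and neither separates 1 copy from the others.

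Hsc70-4, the constitutive cytosolic Hsp70 that also uncoats clathrin vesicles, gave 16858 and 16504 in DMSO, 14991 and 15544 at 3 h, 16319 and 16485 at 6 h, then 16693 and 16769 at 12 h. The 3 h arrays were the lowest, and the 12 h arrays lay within the DMSO range. The log2 change was -0.13 ± 0.06 at 3 h (adjusted p = 0.147). At 6 h it was -0.02 and at 12 h 0.00, and the 95% intervals of the linear ratio were 0.839 to 0.998 at 3 h, 0.902 to 1.07 at 6 h and 0.920 to 1.09 at 12 h. With each array centred on its median, the 3 h change was -0.29 and passed the test (adjusted p = 0.00845). Hsp110, a nucleotide exchange factor for Hsp70 and the only other gene tested in the Hsp70 list, changed by -0.03, 0.08 (1 array at 6 h) and -0.39 and was not called.

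DnaJ-1, the Hsp40 that hands unfolded protein to Hsp70 and stimulates its ATPase, gave 3374 and 3484 in DMSO, 3136 and 3501 at 3 h, 3035 and 2986 at 6 h, then 3127 and 3733 at 12 h. Only at 6 h did both arrays lie below both DMSO arrays. The log2 change was -0.05 at 3 h, -0.19 ± 0.09 at 6 h (adjusted p = 0.224) and -0.005 at 12 h, with 95% intervals of the ratio of 0.836 to 1.12, 0.760 to 1.02 and 0.862 to 1.15. With median centring the DnaJ-1 change at 6 h was -0.35 and was called (adjusted p = 0.0468), and with quantile normalization it was 0.03.

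Of 10 further J-domain genes tested, with those of mitochondria and the reticulum listed apart, 3 rose at 3 h and 4 at 6 h, none fell, and none was called at 12 h. Among all genes tested, 9.91% rose at 3 h and 6.74% at 6 h. The gene mrj, a J-domain cochaperone, gave 719 and 716 in DMSO, 1961 and 2449 at 3 h, 1113 on the readable 6 h array, and 935 and 971 at 12 h. Every exposed array lay above DMSO, highest at 3 h, where the log2 change was 1.58 ± 0.11 (adjusted p = 0.000288). At 6 h mrj rose by 0.62 ± 0.14 (1 array at 6 h; adjusted p = 0.0244). CG7130 rose by 0.34 at 3 h (adjusted p = 0.0235) and by 0.70 at 6 h (adjusted p = 0.00177). Csp, the cysteine string protein of secretory vesicles, changed by 0.51 at 3 h (adjusted p = 0.050) and 0.70 at 6 h (1 array at 6 h; adjusted p = 0.0414), calls held in 5 of 18 and 6 of 17 other settings. The list medians were 0.17, 0.16 and 0.05 at 3, 6 and 12 h.

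Stip1, the Hop protein that bridges Hsp70 and Hsp90, gave 6810 and 7276 in DMSO, 6956 and 7447 at 3 h, 7478 and 7205 at 6 h, then 7623 and 6555 at 12 h. Every exposure overlapped DMSO. The 95% intervals of the ratio were 0.899 to 1.16 at 3 h, 0.917 to 1.19 at 6 h and 0.883 to 1.14 at 12 h, and the log2 differences of 0.03, 0.06 and 0.01 turned negative with median centring. The probe set listed for Hsp83 gave 20316 and 22418 in DMSO, 22224 and 22806 at 3 h, 22374 and 23928 at 6 h, then 24771 and 23095 at 12 h. Its 12 h arrays lay above both DMSO arrays, with a log2 difference of 0.16 ± 0.07 (adjusted p = 0.217), and those at 3 h and 6 h were 0.08 and 0.12, also not called. Without the array annotation, the identity of this probe set rests on the gene table, where 113 of the 133 probe IDs listed are also in the array annotation, all with the same gene.

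Of 15 further Hsp90 and Hsp70 cochaperones tested, 1 rose and 1 fell at 3 h, 1 fell at 6 h and 2 rose at 12 h, beside the 18.8%, 13.5% and 5.92% of all probe sets called in these comparisons, with medians of -0.05, -0.06 and -0.04. The gene mora, a CHORD-domain partner of Hsp90, fell at 6 h by 0.39 ± 0.09 on the log2 scale (adjusted p = 0.0233). PpD3, a phosphatase that acts with Hsp90, rose by 0.31 at 3 h (adjusted p = 0.0164), while its dimmer probe set gave 0.35 and was not called (adjusted p = 0.0993). The third gene with a large mean change, nudC, gave -0.05, -0.42 and -0.16 and was not called. Outside the naming rule, and chosen after its values were seen, Dpit47 was called in both directions. Dpit47 is an Hsp90 cochaperone that binds DNA polymerase. It gave 1865 and 2028 in DMSO, 1485 and 1401 at 3 h, 1741 and 1853 at 6 h, then 2561 and 2952 at 12 h, with changes of -0.43 at 3 h (adjusted p = 0.0121) and 0.49 at 12 h (adjusted p = 0.0175).

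Hsf gave 568 and 548 in DMSO, 662 and 597 at 3 h, 853 on the readable 6 h array, and 479 and 589 at 12 h. The 3 h and 6 h arrays lay above DMSO, and the 12 h arrays lay to both sides of it. The 6 h change was 0.59 ± 0.16 on the log2 scale (1 array at 6 h; adjusted p = 0.0461), and those at 3 h and 12 h were 0.16 (adjusted p = 0.439) and -0.07 (adjusted p = 0.82). The 6 h call rests on a single array, passed the test in 6 of 17 other settings and was lost when any one DMSO or 3 h array was left out (adjusted p from 0.0675 to 0.174). Thus 3 heat shock genes were lower on the array on which the transcript of their activator was higher; the activity of Hsf, which is set largely at the protein level, was not measured.

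Of 8 stress-related genes tested (metallothioneins, catalase, ubiquitin and partners of Hsf), 2 rose at 3 h, 2 at 6 h and 1 at 12 h, and none fell. Among all genes tested, 9.91%, 6.74% and 3.28% rose in these comparisons. Between 0 and 3 of the list rose at 3 h, depending on the setting. The autophagy receptor ref(2)P gave 1049 and 1019 in DMSO, 1344 and 1265 at 3 h, 1835 and 1803 at 6 h, then 1197 and 1262 at 12 h. It rose by 0.33 at 3 h (adjusted p = 0.0197) and by 0.80 at 6 h (adjusted p = 0.000706). MtnA, a metal-binding metallothionein, rose by 0.44 at 6 h (adjusted p = 0.0288) and 0.58 at 12 h (adjusted p = 0.0177). The ankyrin-repeat gene mask rose by 0.88 at 3 h on its brightest probe set (adjusted p = 0.0115), but its other probe sets gave -0.14 and 0.67 and were not called.

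**Figure D2:**
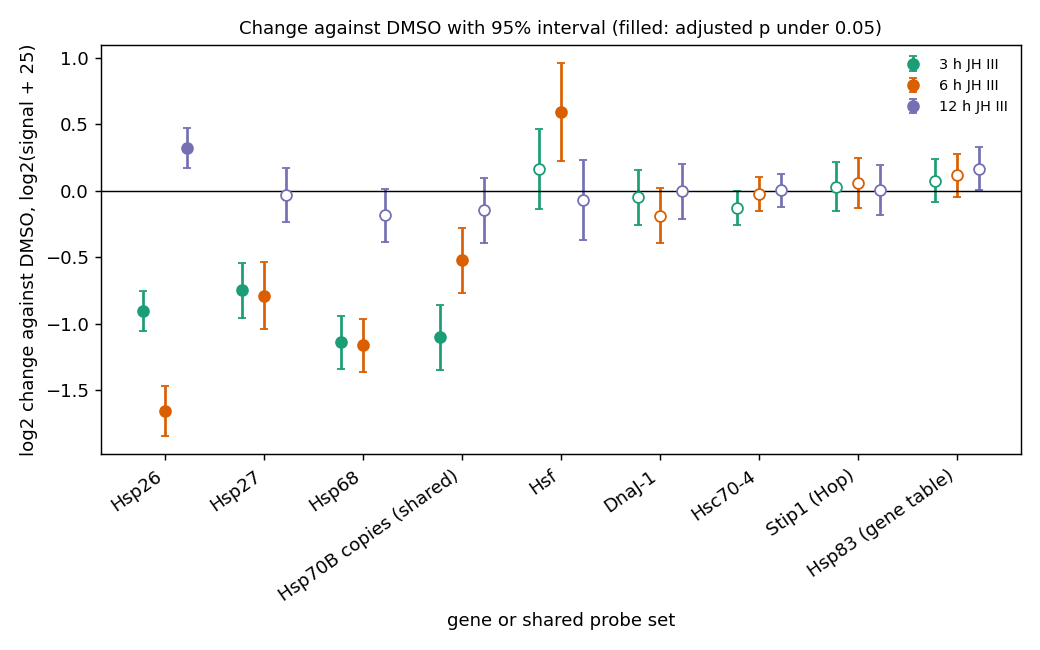
Log2 change of (signal + 25) against DMSO (y axis) with its 95% interval from limma for each gene or shared probe set (x axis), in green at 3 h, orange at 6 h and purple at 12 h; filled points have an adjusted p under 0.05. Hsp26, Hsp27, Hsp68 and the Hsp70B probe set have filled points below 0 at 3 h and 6 h, and Hsp26 at 12 h and Hsf at 6 h have filled points above 0.

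Differences between exposures are set between JH III arrays, while the DMSO arrays still enter the spread behind each p. From 3 h to 12 h, 3 of the 7 genes rose and none fell, where 16.5% of all probe sets were called (7.48% higher, 9.02% lower). Hsp26 rose by 1.22 ± 0.07 on the log2 scale (adjusted p = 3.8e-05), Hsp68 by 0.95 ± 0.09 (adjusted p = 0.000234) and Hsp27 by 0.72 ± 0.09 (adjusted p = 0.00167). The Hsp70B probe set rose by 0.95 ± 0.11 (adjusted p = 0.00063). In each of these 4 probe sets, named here because they were called higher, both 12 h arrays lay above both 3 h arrays. The share of all probe sets separated in this way between exposures was not counted, so the separation adds nothing to the calls.

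From 6 h to 12 h, 3 of the 7 rose and 1 fell, where 14.3% of all probe sets were called (6.95% higher, 7.37% lower). Hsp26 rose by 1.98 ± 0.08, the 2nd highest of 8380 (1 array at 6 h; adjusted p = 1.58e-05). Hsp68 rose by 0.98 ± 0.09 (adjusted p = 0.000204) and Hsp27 by 0.76 ± 0.11 (1 array at 6 h; adjusted p = 0.0033). Hsf fell by 0.66 on the log2 scale (1 array at 6 h; adjusted p = 0.0309), a call that held in 8 of 17 other settings and was lost without either DMSO array or without 12 h replicate 1 (adjusted p from 0.0561 to 0.0753). The Hsp70B probe set gave 0.38 ± 0.11 (adjusted p = 0.0474), a call that held in 5 of 19 other settings and was lost when any one array but 12 h replicate 2 was left out (adjusted p from 0.0535 to 0.194).

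From 3 h to 6 h, Hsp26 alone of the 7 passed the test, where 0.0597% of all probe sets did (0.0358% lower, 0.0239% higher). Its log2 change was -0.75 ± 0.08 (1 array at 6 h; adjusted p = 0.0306), and the call held in 6 of 17 other settings and was lost when any one DMSO or 3 h array was left out (adjusted p from 0.110 to 0.184). Between these exposures Hsp68 changed by -0.02 and Hsp27 by -0.04. The Hsp70B probe set was higher at 6 h by 0.58, with no overlap of the arrays, but was not called (adjusted p = 0.105).

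Cytosolic folding also uses the CCT chaperonin, a closed ring that folds actin and tubulin, and prefoldin, which delivers chains to it. Of the 14 genes of both complexes tested, 7 fell at 3 h and 5 at 6 h, none rose, and at 12 h 2 rose and none fell. Among all genes tested, 8.8% fell at 3 h and 6.7% at 6 h, and 3.28% rose at 12 h. The list medians were -0.26, -0.27 and 0.03. CCT5 gave 7696 and 7633 in DMSO, 4878 and 5949 at 3 h, 5953 on the readable 6 h array, and 7272 and 7715 at 12 h. Its 3 h change was -0.51 ± 0.09 (adjusted p = 0.00854), and that of CCT3 was -0.46 ± 0.09 (adjusted p = 0.00959). The prefoldin subunit Pfdn5 fell at 6 h by 0.55 on the log2 scale (1 array at 6 h; adjusted p = 0.00532). The other genes that fell at 3 h, named after their values were seen, were CCT1, CCT4, CCT6, CCT7 and CCT8, so CCT2 was the only ring subunit not called. The brighter CCT2 probe set gave -0.12, whereas its dimmer one fell by 0.36 (adjusted p = 0.00369). These changes are smaller than those of Hsp26, Hsp27 and Hsp68, and their number depends on the setting: between 2 and 11 of the list fell at 3 h, and between 0 and 12 at 6 h. Pfdn6 was the gene with the larger rise at 12 h, by 0.88 (adjusted p = 0.00757), from 2818 and 3355 in DMSO to 5605 and 5730.

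Of 11 mitochondrial and endoplasmic reticulum chaperones tested, 3 fell and 1 rose at 3 h, 2 fell and 1 rose at 6 h, and 1 fell and 1 rose at 12 h. Shares over all genes tested were 8.8% lower and 9.91% higher at 3 h, and 6.7% and 6.74% at 6 h. At 12 h they were 2.77% and 3.28%. CG5504, a mitochondrial DnaJ, changed by -0.45 at 3 h (adjusted p = 0.0102) and -0.42 at 6 h (1 array at 6 h; adjusted p = 0.0363). CG11267, the Hsp10 of mitochondria, changed by -0.28 and -0.34 (adjusted p = 0.0136 and 0.00756). P58IPK, a reticulum DnaJ, gave -0.26, -0.10 (1 array at 6 h) and -0.52 and was not called. Chosen after its values were seen, Hsc70-3, the BiP of the reticulum, was called at 12 h alone. It gave 5198 and 4968 in DMSO, 4695 to 5372 at 3 h and 6 h, and 3402 and 3606 at 12 h, a change of -0.53 ± 0.07 (adjusted p = 0.00415).

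**Figure D3:**
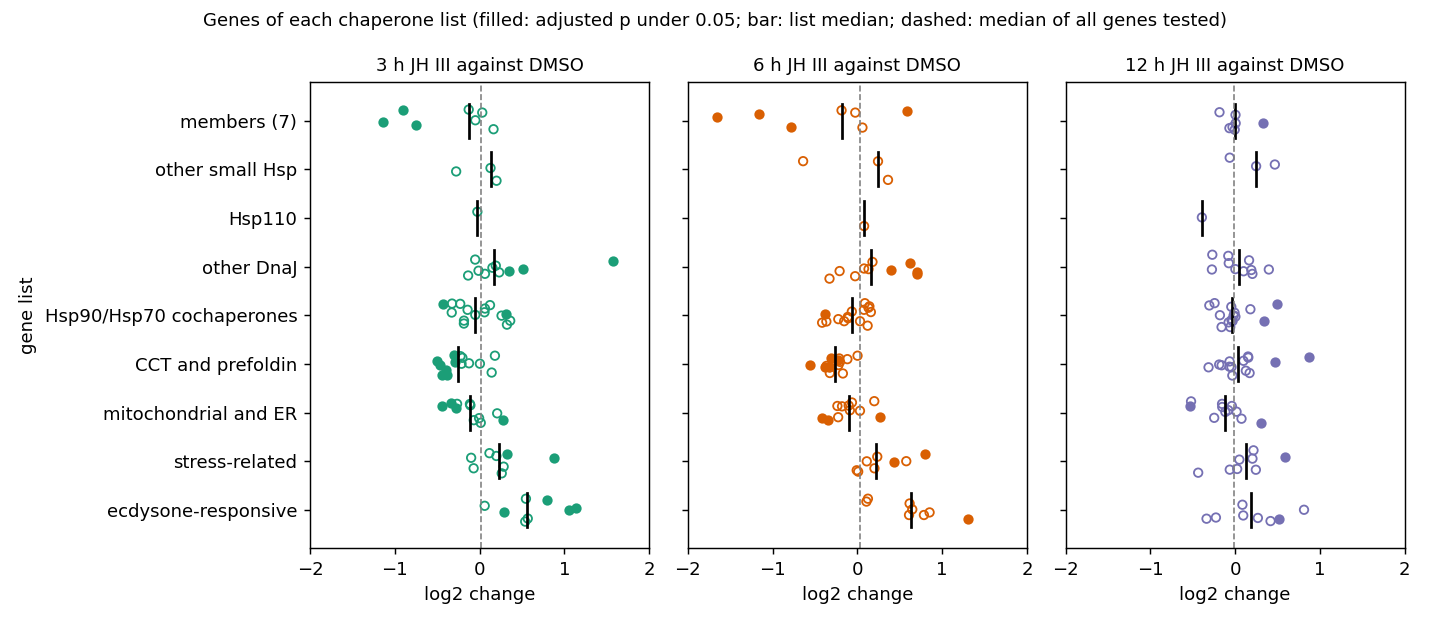
Log2 change of (signal + 25) against DMSO (x axis) of each gene tested in the 7 named members and 8 further lists (y axis), 1 panel for each exposure; filled points have an adjusted p under 0.05, black bars are list medians and dashed lines the median of all genes tested. The 3 filled members below -0.7 at 3 h lie to the left of the chaperonin genes, whose filled points lie between -0.51 and -0.29.

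Lists of hormone-responsive genes were read beside the heat shock genes. Of 8 ecdysone-responsive genes tested, 4 rose at 3 h, 1 at 6 h and 1 at 12 h, and none fell. Among all genes tested, 9.91%, 6.74% and 3.28% rose in these comparisons. Only these 8 of the 17 listed genes with a probe set of their own were bright enough to test. ImpL2, a secreted insulin-binding protein, rose by 0.80 at 3 h (adjusted p = 0.00107) and 1.30 at 6 h (1 array at 6 h; adjusted p = 0.000569). The early gene br rose by 1.14 at 3 h on its brightest probe set (adjusted p = 0.0178), and its other probe sets gave 0.25 and 0.23 and were not called. Eip63E, a cyclin-dependent kinase gene, gave 0.55, 0.79 and 0.81 and was not called. The ecdysone-responsive Hsp26 and Hsp27 fell at 3 h, while 4 of these 8 genes rose, br on its brightest probe set only. Between 1 and 4 of the list rose at 3 h, depending on the setting. Of 11 genes of juvenile hormone reception and metabolism tested, 2 rose at 3 h and 2 at 6 h, and none fell. The shares of all genes that rose are those given above. The list medians were 0.01 and 0.05 at 3 h and 6 h, beside 0.01 and 0.04 over all genes tested. JhI-26, named as a gene the hormone induces, rose by 0.65 at 3 h (adjusted p = 0.00338) and 0.92 at 6 h (1 array at 6 h; adjusted p = 0.00275). Nup358, the nuclear pore protein that acts with Hsp83 in the import of Met, rose by 0.60 at 3 h (adjusted p = 0.0199). Met itself was dim and variable, at 105 and 36.3 in DMSO, and was not called. Kr-h1, named after its values were seen, gave 192 and 193 in DMSO and 96.6 and 139 at 3 h. It gave 251 on the readable 6 h array and 101 and 157 at 12 h, and was not called.

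Markers of blood cells moved with the same exposures. Among all genes tested, 9.91% rose at 3 h, 6.74% at 6 h and 3.28% at 12 h. Of 10 hemocyte markers tested, 6 rose at 3 h, 3 at 6 h and none at 12 h, with Hml, Ppn and srp changing most. Their summed signal over 13 probe sets was 10326 and 10242 in DMSO, 15205 and 15233 at 3 h, 14125 and 13848 at 6 h, then 9311 and 10051 at 12 h. Hml was at 2116 and 2101 in DMSO and at 3815 to 3927 at 3 h and 6 h, while NimC1, Sr-CI, lz and gcm stayed under 30 on all arrays. Summed signals of embryo patterning genes ranged from 459 to 831, of neuron markers from 383 to 546, of muscle markers from 242 to 484 and of fat body markers from 2344 to 2754, with none of these markers called. Germline markers moved with the exposures too: of 5 tested, 2 rose at 3 h and 2 at 6 h (median log2 changes 0.41 and 0.69) and none at 12 h. Their summed signal was 6065 and 5645 in DMSO, 6436 and 6616 at 3 h, 7375 and 6183 at 6 h, then 5205 and 5434 at 12 h, so that every 3 h and 6 h array lay above DMSO and every 12 h array below it. DMSO replicate 1, whose label names embryos, had an embryo sum of 732 against 696 in DMSO replicate 2. The part of these cell markers in the changes of the heat shock genes was not tested. The ratio of 3′ to 5′ control probes, a sign of RNA quality, differed from DMSO by 0.19, 0.19 and 0.20 on the log2 scale for actin, by -0.03, 0.06 and 0.01 for Gapdh, and by 0.29, 0.07 and 0.17 for eIF4A at 3, 6 and 12 h. Spiked hybridization controls were higher than in DMSO by 0.14, 0.04 and 0.53. The part of these values in the results was not tested.

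Across readable arrays, the profiles of Hsp68 and Hsp27 had a Pearson r of 0.987 over 7 arrays, Hsp27 and Hsp26 of 0.920, and Hsp68 and Hsp26 of 0.897. Hsf and Hsp26 had an r of -0.875 over the same number. Hsc70-4 had an r of 0.812 with Hsp27, and DnaJ-1, Stip1 and the Hsp83 probe set stayed under 0.6 in size with Hsp26, Hsp27 and Hsp68. These arrays share groups and scaling, so the values describe the profiles and no more. Of all single-gene probe sets, those most like Hsp26 were mRpL42 (r = 0.997), mip40 (0.989) and NimC2 (0.988), each over 7 arrays. Those most like Hsp27 were CG1824 (0.994), Clp (0.993) and mRpL9 (0.990), and those most like Hsp68 were U2af38 (0.993), CG5532 (0.991) and HP1c (0.990). The correlation takes no account of the size of change, which was close in some and not in others. At 6 h Clp changed by -0.78, CG1824 by -0.65 and mRpL9 by -0.59 beside -0.79 for Hsp27. The neighbours of Hsp26 changed by -0.50 (mRpL42), -0.44 (mip40) and -0.67 (NimC2) beside -1.65. Those of Hsp68 changed by -0.31 (U2af38), -0.43 (CG5532) and -0.71 (HP1c) beside -1.16. Of these neighbours, mip40, U2af38 and HP1c have 1 array at 6 h. The profiles nearest to Hsf were Pp1-87B (0.985), l(2)k09913 (0.979) and Cdc7 (0.975). Those nearest to Hsc70-4 were Ahcy (0.987), the dimmer probe set of stv (0.985) and CG13068 (0.974). The brighter stv probe set was not among them, at 317 and 381 in DMSO, 315 and 235 at 3 h, and 419 and 345 at 6 h. DnaJ-1 was nearest to Marcal1 (0.952) and Stip1 to CG6325 (0.956), at lower r.

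In the gene order of the RefSeq table, Hsp26 and Hsp27 lie 4 places apart in the small heat shock cluster, with Hsp22, Hsp23, CG4456 and CG4461 among their nearest 5 genes to each side. This look at neighbours was added after the values were known. For scale, 9.91% of all genes tested rose and 8.8% fell at 3 h, and 6.74% rose and 6.7% fell at 6 h. Of the 3 neighbours of Hsp26 that were tested, Hsp27 fell, CG4461 was not called, and Fdx1, a mitochondrial ferredoxin 5 places away, rose by 0.49 at 3 h (adjusted p = 0.0155) and 0.73 at 6 h (adjusted p = 0.00395). Hsp68 has no other named heat shock gene among its nearest 5 to each side. Its adjacent genes SMC1 and CG6000 changed by -0.11 and 0.28 at 3 h and were not called. Of its 6 tested neighbours only Pisd, 3 places away, fell at 3 h, by 0.41 on the log2 scale (adjusted p = 0.0082). Beside Hsf, 3 of 5 tested neighbours rose at 3 h, and pAbp, the poly(A)-binding protein 2 places away, rose by 1.37 (adjusted p = 6.66e-05).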

How the data were processed

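RNA from 8 arrays (4 groups of 2) was analysed from the series table. Its values are intensities, the MAS5 signals deposited by the authors, per the submitters' processing notes; the genome build behind the probe sets is not given in the sources used here. On each of the 7 intact arrays the values had a trimmed mean (2% off each end) of 500.1, so these arrays had been scaled. The scaling of 6 h replicate 2 was not checked in this way. Over the probe sets readable on every array, medians of the 8 arrays were 70.9 to 85.9. No further normalization was applied. On 6 h replicate 2, 3146 zeros and 5 impossible values in 2 stretches were set to missing. Depth has no meaning for arrays, and precision is limited by their number.

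The 44 control probe sets and 5586 dim ones (mean log2 value below the 40th percentile) were left out. The log2(signal + 25) of the other 8380 was fitted with limma 3.58.1 in R 4.3.3 (group means of all 4 groups, variance trend, two-sided, Benjamini-Hochberg over all 8380, threshold 0.05), after a test on simulated data. Of 14010 probe sets, 12443 had 1 symbol in the array annotation, 327 several and 1240 none.

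The members and lists were chosen with earlier results of these data known. Named genes were the 10 members, the 3 genes of each list with the largest mean change over the exposures, and the 3 profiles most like each member; symbols were updated through RefSeq after the files were read, and of several probe sets the brightest was used. Deviations of same-numbered arrays correlated at -0.02 to 0.04, so the numbers do not pair the arrays. Alternatives were 2 normalizations, 2 constants, 2 filters, no variance trend, a replicate block, fits of the compared groups alone, each array left out, and, chosen after seeing the data, complete probe sets only and the zeros kept.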

Additional observations from a re-analysis of the deposited data

Results flagged for a closer look

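The changes of 4 of the 7 genes, and of the Hsp70B probe set, differed between exposures by the test of the difference itself (limma, adjusted over all probe sets tested). Over all probe sets tested, 0.0597% were called from 3 h to 6 h, 16.5% from 3 h to 12 h and 14.3% from 6 h to 12 h. Hsp26 changed by -0.75 on the log2 scale from 3 h to 6 h, by 1.22 from 3 h to 12 h and by 1.98 from 6 h to 12 h. Hsp68 changed by 0.95 from 3 h to 12 h and by 0.98 from 6 h to 12 h. Hsp27 changed by 0.72 and 0.76 over the same intervals, and the Hsp70B probe set by 0.95 and 0.38. Hsf changed by -0.66 from 6 h to 12 h. Values of Hsp26, Hsp27 and Hsf at 6 h come from 1 array. Some calls were less firm: that of Hsp26 from 3 h to 6 h held in 6 of 17 other settings. That of Hsf held in 8 of 17, and that of the Hsp70B probe set from 6 h to 12 h in 5 of 19.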

How the results depend on the processing

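The falls of Hsp26, Hsp27 and Hsp68 at 3 h and 6 h and their rises to 12 h kept direction and call under each alternative that gave a value, except that keeping the zeros of 6 h replicate 2 ended the calls of Hsp26 and Hsp27, and that of Hsp68 at 6 h. Without 6 h replicate 1, Hsp26, Hsp27 and Hsf have no 6 h value. Of the 7 members, the number called fell to 0 at 12 h and to 0 between 3 h and 6 h with quantile normalization, with median centring, with no filter, without the variance trend and with only the compared groups fitted. With the replicate block it was 0 between 3 h and 6 h and 3 between 6 h and 12 h, and the block ended the calls of Hsf at 6 h (0.61, adjusted p = 0.0788), of Hsf between 6 h and 12 h (-0.67, adjusted p = 0.0571), of Hsp26 between 3 h and 6 h (-0.72, adjusted p = 0.119), of the dimmest Hsp22/CG4456 probe set at 3 h (0.94, adjusted p = 0.064) and of the Hsp70B probe set between 6 h and 12 h (0.38, adjusted p = 0.0682), and no other member call; the cause was not tested. With only the 4 members readable on all 8 arrays the count was 1 at 3 h, 1 at 6 h, 0 at 12 h, 0 between 3 h and 6 h and 1 in both comparisons of 12 h with 3 h and 6 h, since fewer genes were tested. With the zeros kept it was 1 at 3 h, 0 at 6 h, 0 at 12 h, 0 between 3 h and 6 h and 1 for 12 h against 3 h or 6 h, and Hsf turned to -1.98 at 6 h, -2.14 between 3 h and 6 h and 1.91 between 6 h and 12 h, which the zeros themselves bring about.

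With 1 array left out, the count ranged from 1 to 4 at 6 h, 0 to 1 at 12 h, 0 to 1 between 3 h and 6 h, and 1 to 4 between 6 h and 12 h, and stayed at 3 at 3 h and between 3 h and 12 h. Values of the members, Hsp83 and the shared probe sets that changed sign were never called in the main setting, except those of Hsf above. In the other lists, the 6 h rises of ImpL2, JhI-21, JhI-26, mrj, Csp and srp were called. Each turned negative in 1 setting, that with the zeros of 6 h replicate 2 kept, which the zeros themselves bring about. Leaving out arrays gave DnaJ-1 -0.13 to 0.030 at 3 h and -0.13 to 0.12 at 12 h, Stip1 -0.017 to 0.081 and -0.10 to 0.11, Hsc70-4 -0.011 to 0.020 at 12 h, Hsf -0.21 to 0.074, Hsp27 -0.093 to 0.031, and the Hsp22/CG4456 probe sets -0.094 to 0.20 and -0.014 to 0.55 at 12 h. Between 3 h and 6 h it gave Hsp27 -0.14 to 0.066 and Hsp68 -0.073 to 0.024, and the block gave Hsp27 0.013. Quantile normalization turned Hsc70-4 to 0.038 and DnaJ-1 to 0.033 at 6 h, Hsc70-4 to -0.16, DnaJ-1 to 0.0038, Stip1 to -0.043 and Hsp83 to -0.029 at 12 h, and Hsp68 to 0.22 between 3 h and 6 h. Median centring turned Stip1 to -0.13, -0.10 and -0.12 at 3, 6 and 12 h, Hsp83 to -0.085 and -0.048 at 3 h and 6 h, and Hsc70-4 to -0.12 and an Hsp22/CG4456 probe set to -0.071 at 12 h; the cause was not tested. Differences between exposures were recomputed only for Hsp26, Hsp27, Hsp68, Hsf and the Hsp70B probe set, whose values the text gives.

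Over all probe sets tested, the number called ranged with the alternatives, the kept zeros aside, from 516 to 1920 at 3 h (1572 in the main setting), 354 to 1490 at 6 h (1133), 37 to 889 at 12 h (496), 0 to 15 between 3 h and 6 h (5), 518 to 1498 between 3 h and 12 h (1383) and 458 to 1368 between 6 h and 12 h (1200). Calls of the other lists moved as much: in the J-domain list 1 to 3 genes rose at 3 h, in the cochaperone list 0 to 6 fell, and in the ecdysone list 1 to 4 rose. Groups of 2 arrays, 1 readable array at 6 h for 3 members, and a control without matched times limit every value, and signals near the filter, as for the dimmest Hsp22/CG4456 probe set, are close to background.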
